A study of Mus musculus with 24 samples.

Results

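Complex I, the NADH:ubiquinone oxidoreductase of the mitochondrial inner membrane, was followed here through every gene whose symbol begins with Nduf. The count tables held 51 such rows among 54658 gene symbols. They comprised 37 nuclear subunits of the complex, 8 assembly factors (Ndufaf1 to Ndufaf8, proteins that help to build the complex and are absent from the finished enzyme) and 6 other rows. The other rows were Ndufa4, once counted as a complex I subunit and now assigned to complex IV, its paralogue Ndufa4l2, and the rows Ndufab1-ps, Ndufs6b, Ndufb4c and Ndufa11b, copies or relatives of subunit genes with very few reads. Ndufb1-ps, the only mouse row of subunit Ndufb1, was kept with the subunits. All 37 subunits and all 8 assembly factors passed the filter on low counts in each of the 3 tissues, so no member of these lists was lost to it.

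RNA was sequenced from male C57BL/6 mice aged 7 to 12 weeks. In the first experiment, 6 vehicle and 6 β-NMN mice received thioglycolate (TGC) into the peritoneum, with β-NMN, a precursor of NAD+, at 185 mg/kg/day or saline injected intraperitoneally once daily for 3 days, and the peritoneal cells were then plated and exposed to E. coli for 6 h. In the second, 3 vehicle and 3 β-NMN mice underwent cecal ligation and puncture (CLP), received the same dose or saline directly after surgery, and gave a heart and a lung each on the following day. Vehicle mice thus had TGC or CLP like the treated ones, all peritoneal cells had met bacteria, and neither sham mice nor unstimulated cells were analysed here. The values are CPM, a gene's counts per 1000000 counts of its library with TMM library sizes, fold changes are β-NMN over vehicle on the log2 scale, and a gene was called at an adjusted p below 0.05 in edgeR's quasi-likelihood test over all genes tested in that tissue.

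The mammalian complex takes electrons from NADH and passes them through a flavin and a chain of iron-sulfur clusters to ubiquinone, while it pumps protons across the inner membrane. Its peripheral arm holds the N module, which oxidizes NADH, and the Q module, which reduces quinone. The membrane arm pumps protons and is described as a proximal and a distal part. The conserved catalytic subunits are encoded partly in the nucleus (such as Ndufv1, Ndufv2, Ndufs1, Ndufs3, Ndufs7 and Ndufs8) and partly in mitochondrial DNA (the mt-Nd genes), and the remaining nuclear subunits are accessory. Macrophages that meet bacterial products are known to change how they use this chain, and heart muscle is among the tissues richest in it.

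The libraries matched their labels by marker genes, with limits that bear on the results. Total counts ranged from 31126823 to 112456050 in peritoneal libraries, from 27319513 to 68523239 in hearts and from 8915366 to 28356786 in lungs. The summed level of 6 macrophage markers was 5442 to 11820 CPM in peritoneal cells, that of 6 cardiomyocyte markers 29756 to 53189 CPM in hearts, and that of 4 alveolar type 2 markers 21474 to 40533 CPM in lungs. The organs of vehicle mouse 2 stood apart: its heart had by far the highest atrial marker sum and its lung the lowest total count, so fold changes in hearts and lungs are given with and without this mouse. The labels do not tie any library to a batch. In bulk tissue, fewer cells of a type and less RNA per cell cannot be told apart.

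In peritoneal cells, β-NMN was accompanied by higher levels of most complex I subunits. Of 37 subunits, 24 were higher and 0 were lower, while 13 did not pass the test. Among all 14985 genes tested, 23.7% were called higher and 27.9% lower. The median log2 fold change was 0.38 over the subunits (range −0.13 to 0.89) and −0.02 over all genes, and 36 subunits lay above 0, compared with 48.5% of all genes. In 10 subunits every β-NMN library exceeded every vehicle library, and in 0 the reverse held. Such a separation was found in the higher direction in 12.6% of all genes and in the lower direction in 14%. Averaged over the subunits, the level per mouse was 3.41 ± 0.15 log2 CPM in vehicle and 3.78 ± 0.10 in β-NMN mice (SD, n = 6 each), a difference of 0.38 on the log2 scale, and only the lowest β-NMN mouse (3.63) fell below the highest vehicle mouse (3.64). The difference was 0.55 among libraries with more than 70000000 counts and 0.23 among the others.

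**Figure D1:**
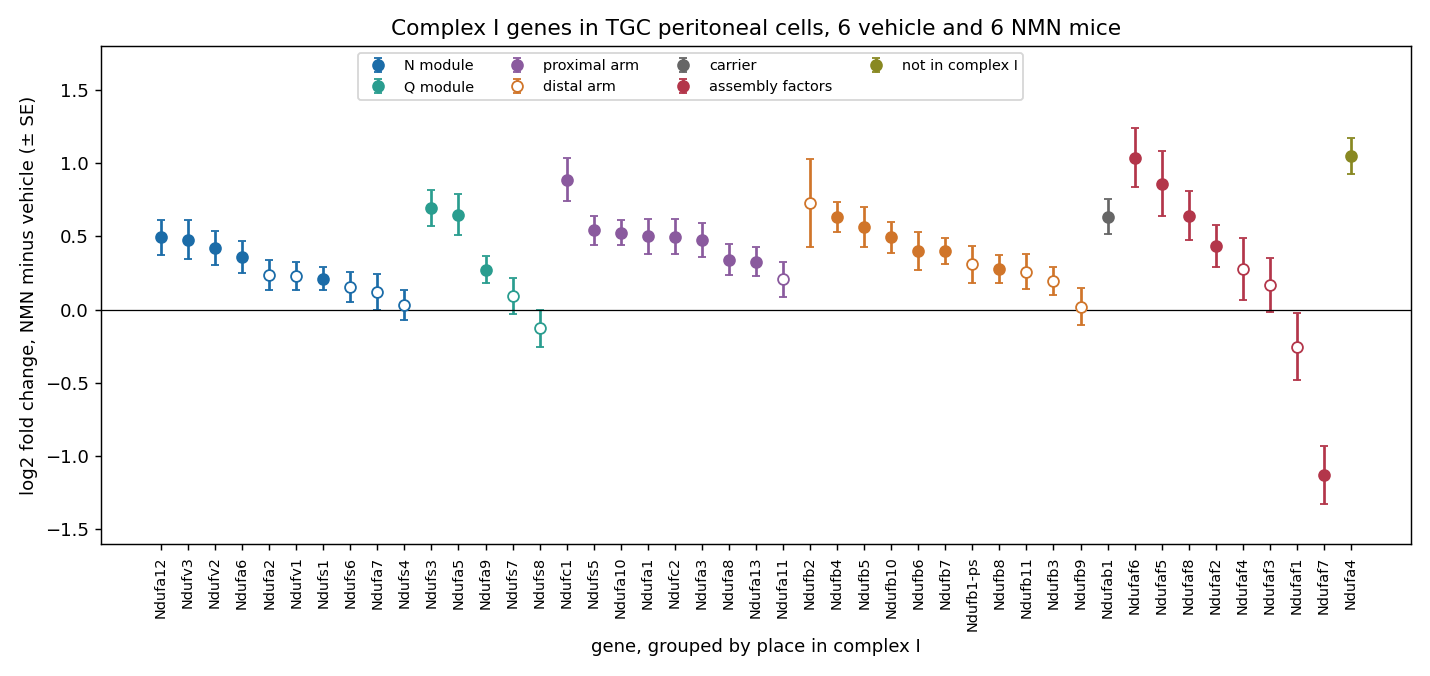
Log2 fold change (NMN stands for β-NMN) with its standard error for 36 of the 37 subunits and the other tested members in peritoneal cells, coloured by place in complex I, with filled points for genes called at an adjusted p below 0.05 and open points for those that were not. Of the 36 subunits drawn 23 have filled points and all of these lie above 0, whereas the assembly factors reach from Ndufaf7 at −1.13 to Ndufaf6 at 1.04.

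Each module held subunits called higher and others that did not pass, and differences between modules were not tested. Against the 23.7% called higher among all genes, in the N module 5 of 10 subunits were higher, with a median log2 fold change of 0.23. In the Q module 4 of 6 were higher (median 0.33), in the distal membrane arm 6 of 11 (median 0.40) and in the proximal membrane arm 8 of 9 (median 0.50), where only Ndufa11 did not pass. Ndufab1, the acyl carrier protein present in both arms, was also higher.

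Of the subunits and other rows called, those with the largest rises were Ndufa4, Ndufc1, Ndufs3, Ndufa5 and Ndufab1. Ndufc1 (chr3:51404677-51408988, GENCODE M21 on GRCm38, minus strand), a small accessory subunit of the membrane arm, had a lowest, median and highest level of 2.98, 3.80 and 4.64 CPM in vehicle mice and of 5.77, 6.85 and 9.15 CPM in β-NMN mice. The groups did not overlap, and the log2 fold change was 0.89 ± 0.15 (SE, edgeR adjusted p = 0.000169; exact two-sided permutation p = 0.00216, the smallest that 6 mice against 6 allow). Ndufa4 (chr6:11900292-11907497, minus strand), the protein now placed in complex IV, had 7.90, 9.30 and 12.5 CPM in vehicle and 15.8, 20.0 and 22.8 CPM in β-NMN mice. It was the largest rise of all rows at 1.05 ± 0.12 (SE, edgeR adjusted p = 7.99e-06), and again no library of one group reached into the other. Ndufa5, an accessory subunit of the Q module, rose by 0.65 ± 0.14 and Ndufab1 by 0.63 ± 0.12 (SE, edgeR adjusted p = 0.00122 and 0.000492), both without overlap. The groups were also separate for Ndufa10, Ndufa3 and Ndufs5 of the proximal arm and for Ndufb4 and Ndufb7 of the distal arm, with log2 fold changes of 0.53, 0.48, 0.54, 0.63 and 0.40. Ndufa4l2, an Ndufa4 paralogue known to respond to low oxygen, had 164 reads over the 12 libraries and was not tested.

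The nuclear core subunits, most of which carry the redox centres or the quinone site, did not move as 1 block. Ndufs3 (chr2:90894634-90904827, minus strand), a core subunit of the Q module, had a lowest, median and highest level of 7.44, 10.8 and 12.2 CPM in vehicle mice and of 13.6, 17 and 19.7 CPM in β-NMN mice, without overlap (log2 fold change 0.69 ± 0.12 SE, edgeR adjusted p = 0.000267). Ndufv2, an iron-sulfur subunit of the N module, was higher by 0.42 ± 0.12 (adjusted p = 0.00783) with overlapping groups. Ndufs1, the largest iron-sulfur subunit, passed narrowly at 0.21 ± 0.08 (adjusted p = 0.0375) and did not pass without vehicle mouse 2, vehicle mouse 5 or β-NMN mouse 2 (adjusted p = 0.0811, 0.0645 and 0.0593). Ndufv1, which binds NADH and the flavin, had 0.23 ± 0.10 and an adjusted p of 0.0631, and it passed without vehicle mouse 3, β-NMN mouse 4 or β-NMN mouse 6 (adjusted p = 0.0115, 0.0403 and 0.0292). Ndufs7 and Ndufs8, the iron-sulfur subunits next to the quinone site, had log2 fold changes of 0.09 ± 0.13 and −0.13 ± 0.13 (adjusted p = 0.561 and 0.422), and Ndufs7 had 0.02 to 0.23 when 1 library was left out, the highest without vehicle mouse 3. Their groups overlapped widely, with Ndufs8 at 8.84 to 14.5 CPM in vehicle and 8.59 to 10.9 CPM in β-NMN mice. Of the other subunits not called, Ndufb2 had a log2 fold change of 0.73 ± 0.30 at a median of 0.834 CPM in vehicle mice, and the remaining ones lay between 0.02 (Ndufb9) and 0.31 (Ndufb1-ps).

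**Figure D2:**
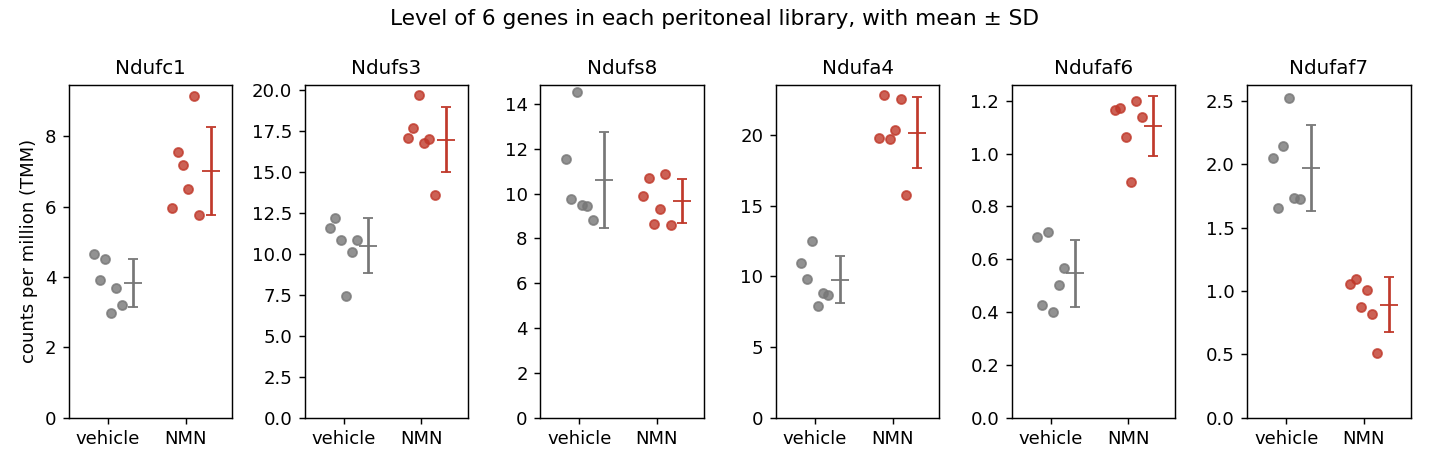
TMM-scaled CPM in each of the 12 peritoneal libraries for 6 genes, with vehicle in grey, β-NMN (NMN) in red and the mean ± SD beside the points. The groups are separate for Ndufc1, Ndufs3, Ndufa4, Ndufaf6 and Ndufaf7, the last with lower values in β-NMN mice, and they overlap for Ndufs8.

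Of the 8 assembly factors, 4 were higher, 1 was lower and 3 did not pass, against 23.7% higher and 27.9% lower among all genes tested, with a median log2 fold change of 0.36, and all were measured at low levels of 0.400 to 4.30 CPM. Ndufaf6, needed early in the building of the membrane arm, had a lowest, median and highest level of 0.400, 0.534 and 0.701 CPM in vehicle and of 0.894, 1.15 and 1.20 CPM in β-NMN mice, without overlap (log2 fold change 1.04 ± 0.20 SE, edgeR adjusted p = 0.000589). Ndufaf5, which hydroxylates Ndufs7, and its partner Ndufaf8 were higher by 0.86 ± 0.22 and 0.64 ± 0.17 (adjusted p = 0.00468 and 0.00472). Ndufaf2, which joins before the N module is attached, was higher by 0.44 ± 0.14 (adjusted p = 0.0199), but not without vehicle mouse 5 (adjusted p = 0.0512). An antisense gene, B230220B15Rik, covers 65.6% of the exonic bases of Ndufaf2, and no source used here states if strand was used in counting, so these reads may belong to either gene. Other members have smaller overlaps with antisense genes, among them Ndufb6 (39%, Smim27) and Ndufa13 (30%, Tssk6), both called higher. Ndufb9, which was not called, shares 19.5% with Gm49356 on its own strand.

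Ndufaf7 (chr17:78937136-78948052, plus strand), a methyltransferase of the mitochondrial matrix, was the only member called lower. Its lowest, median and highest levels were 1.65, 1.89 and 2.53 CPM in vehicle and 0.512, 0.941 and 1.10 CPM in β-NMN mice, so that every β-NMN library lay below every vehicle library (log2 fold change −1.13 ± 0.20 SE, edgeR adjusted p = 0.000278). Ndufaf1, a member of the intermediate assembly complex, and Ndufaf3 and Ndufaf4, which act on the Q module, had log2 fold changes of −0.25 ± 0.23, 0.17 ± 0.18 and 0.28 ± 0.21 (adjusted p = 0.38, 0.478 and 0.299). With 1 library left out they ranged from −0.37 (without vehicle mouse 2) to −0.15 (without β-NMN mouse 6), from 0.09 (without β-NMN mouse 2) to 0.34 (without vehicle mouse 3) and from 0.22 to 0.47. Ndufaf4 passed at its highest value, without vehicle mouse 6 (edgeR adjusted p = 0.0496).

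Genes of other respiratory lists were called higher more often than lower, against the 23.7% higher and 27.9% lower of all genes. Among the mitochondrially encoded subunits of complex I, 6 of 7 were higher and 0 lower, with a median log2 fold change of 0.63; mt-Nd4, a proton-pumping subunit, went from a mean of 254 to 429 CPM (0.76 ± 0.11, edgeR adjusted p = 4.93e-05), and mt-Nd3, at under 1 CPM, did not pass. Of 13 further assembly factors, 7 were higher and 0 lower, among them Foxred1, which acts late in assembly (0.67 ± 0.10, adjusted p = 5.93e-05), Timmdc1 (0.61 ± 0.10, adjusted p = 9.63e-05) and Acad9 (0.63 ± 0.13, adjusted p = 0.00122) of the membrane arm's assembly. In the other complexes, 2 of 4 genes of complex II, 5 of 9 of complex III, 6 of 10 of complex IV and 8 of 14 of complex V were higher, and 1, Uqcrq of complex III, was lower. The median log2 fold changes were 0.25, 0.33, 0.29 and 0.31. These lists were chosen with earlier results of these data known, and none was tested against complex I.

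Of 9 transcriptional regulators known to act on respiratory genes, 4 were lower and 2 were higher, against the 27.9% lower and 23.7% higher among all genes tested. Esrra, encoding the nuclear receptor ERRα, went from a mean of 77.2 to 41.7 CPM (log2 fold change −0.89 ± 0.11 SE, edgeR adjusted p = 9.88e-06). Gabpa and Gabpb1, the subunits of the ETS-family factor GABP, had −0.41 ± 0.10 and −0.34 ± 0.08 (adjusted p = 0.0029 and 0.00381), and Yy1 had −0.40 ± 0.09 (adjusted p = 0.00136). The coactivators Pprc1 and Ppargc1b were higher by 0.39 ± 0.12 and 1.03 ± 0.29 (adjusted p = 0.0122 and 0.00821), while their relative Ppargc1a had −0.55 ± 0.27 (adjusted p = 0.103). Nrf1, at 36.3 and 36.2 CPM, differed by −0.00 ± 0.08 (adjusted p = 0.973).

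The promoters of the members were searched for short motifs that these factors are known to bind. RefSeq windows (GRCm38.p6) of 300 bases, from 250 before to 50 after a transcription start, were matched to 41 of the 51 rows, 33 of them subunits. The letters searched on both strands were GCATGCG for NRF1, CCGGAA for ETS factors such as GABP, AAGATGG for YY1 and CAAGGTCA for estrogen-related receptors, and in no member window did matches of different motifs share a base. The ETS letters were found in 28.6% of 35 subunit windows and in 14.9% of all 32851 windows, the YY1 letters in 20% and 6.34%, the NRF1 letters in 8.57% and 3.58%, and the ERR letters in 2.86% and 1.56%. Split by the call in peritoneal cells, the ETS letters stood in 30.4% of 23 windows of subunits called higher and in 25% of 12 windows of the others, and the YY1 letters in 17.4% and 25%. A match is a run of letters and does not show that a factor binds there, and these shares were not tested.

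A few upstream sequences are printed so that these letters can be seen in place. They are, for each gene, the longest stretch within the 250 bases before the RefSeq start that lies in no GENCODE M21 exon, written 5′ to 3′ on the strand of the gene, with any motif match in capitals. Ndufc1 (chr3:51408989-51409205, minus strand) is shown as the subunit with the largest rise, Ndufa10 (chr1:92473861-92474008, minus strand), Ndufa6 (chr15:82354323-82354541, minus strand) and Ndufs5 (chr4:123718203-123718436, minus strand) as subunits called higher with an ETS, an NRF1 and an ERR match, Ndufaf4 (chr4:24897833-24898082, plus strand) as the member with the smallest p in hearts, and Ndufaf7 (chr17:78937067-78937134, plus strand) as the member that fell. Ndufc1 and Ndufaf7 hold no match in the stretch shown. In Ndufa10 the capitals hold the ETS letters on both strands, in Ndufaf4 they hold the NRF1 letters on both strands, and in Ndufs5 they are the ERR letters read on the opposite strand.
Ndufc1: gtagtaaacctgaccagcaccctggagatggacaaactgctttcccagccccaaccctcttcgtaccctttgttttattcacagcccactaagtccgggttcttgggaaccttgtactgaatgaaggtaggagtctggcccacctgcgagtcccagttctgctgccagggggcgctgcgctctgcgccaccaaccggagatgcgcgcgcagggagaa
Ndufa10: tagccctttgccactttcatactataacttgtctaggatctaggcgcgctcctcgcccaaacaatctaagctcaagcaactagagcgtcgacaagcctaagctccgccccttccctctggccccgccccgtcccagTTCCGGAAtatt
Ndufa6: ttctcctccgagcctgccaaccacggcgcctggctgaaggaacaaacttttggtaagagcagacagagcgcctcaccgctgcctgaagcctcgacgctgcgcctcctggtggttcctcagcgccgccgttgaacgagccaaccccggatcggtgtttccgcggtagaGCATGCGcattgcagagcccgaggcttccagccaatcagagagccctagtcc
Ndufs5: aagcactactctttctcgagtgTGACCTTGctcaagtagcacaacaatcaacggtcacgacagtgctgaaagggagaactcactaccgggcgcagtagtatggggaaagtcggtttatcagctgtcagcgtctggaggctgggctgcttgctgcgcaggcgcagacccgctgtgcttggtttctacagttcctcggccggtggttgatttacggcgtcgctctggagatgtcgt
Ndufaf4: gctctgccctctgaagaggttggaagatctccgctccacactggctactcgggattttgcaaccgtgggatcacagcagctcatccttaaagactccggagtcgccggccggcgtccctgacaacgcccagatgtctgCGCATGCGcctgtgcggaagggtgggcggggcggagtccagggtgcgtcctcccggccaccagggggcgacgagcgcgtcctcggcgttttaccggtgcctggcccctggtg
Ndufaf7: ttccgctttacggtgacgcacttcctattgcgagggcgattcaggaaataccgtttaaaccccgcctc

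Other measures moved with treatment in the same peritoneal libraries. The summed level of the 6 macrophage markers was 5442 to 8243 CPM in vehicle and 9986 to 11820 CPM in β-NMN mice, with 3 of the 6 genes called higher and 0 lower. The 4 fibroblast markers were all lower (89.6 to 956 against 19.8 to 85.7 CPM), as were the 4 T cell markers (3.03 to 9.64 against 0.884 to 2.57 CPM), while of 6 neutrophil markers, which summed to 489 to 990 against 334 to 467 CPM, 4 were lower and 1 was higher. Of the B cell markers 2 of 4 were lower (30.6 to 149 against 20.6 to 81.6 CPM), as were 2 of the 3 endothelial markers tested (63.1 to 143 against 64.8 to 116 CPM over 4), while the 3 erythroid markers were higher (2.69 to 33.1 against 44.6 to 114 CPM). No marker of these lists was at 0. The part of cell makeup in the subunit result was not tested. Sequencing depth moved partly with treatment too, since vehicle mice 4 to 6 and β-NMN mice 1 and 2 had more than 70000000 counts and the others fewer. With depth class as a term 23 subunits were called higher and 0 lower, Ndufs1 no longer among them (edgeR adjusted p = 0.0535).

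In CLP hearts, 0 complex I genes were called, as were 0 of all 16245 genes tested (0%). By edgeR at an unadjusted p below 0.05, 1837 of all genes and 1 of the 45 subunits and assembly factors were found, and DESeq2 and limma-voom called 283 and 3 of all genes but 0 of the 45. All 37 subunits and all 8 assembly factors had log2 fold changes above 0, with medians of 0.28 and 0.27 against −0.01 over all genes, but most of this rested on vehicle mouse 2. Without it the medians were 0.07 and 0.10, and 28 subunits lay above 0 and 9 below. With all mice, 4 subunits and 1 assembly factor had groups that did not overlap, all with higher values after β-NMN, which is 5 of 45; over all genes this was found in 11.6% in the higher and in 11.5% in the lower direction.

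Ndufaf4, the Q module assembly factor, had the smallest p of the members in hearts. The vehicle hearts had 37.2, 27.3 and 39.1 CPM and the β-NMN hearts 47.4, 50.4 and 48.5 CPM (mice 1, 2 and 3 of each group), giving 0.50 ± 0.15 on the log2 scale (SE, edgeR adjusted p = 0.435). All 3 β-NMN hearts exceeded all 3 vehicle hearts, for which a two-sided exact permutation test can give no p below 0.1 with 3 mice in each group. Without vehicle mouse 2 the log2 fold change was 0.35. Ndufs7, a core subunit of the quinone site, had 503, 270 and 479 CPM in vehicle and 609, 641 and 522 CPM in β-NMN hearts (0.50 ± 0.26, adjusted p = 0.457; 0.26 without vehicle mouse 2). Ndufa12, an accessory subunit of the N module, had 221, 143 and 229 CPM against 288, 273 and 234 CPM (0.42 ± 0.21, adjusted p = 0.451; 0.23 without that mouse). In both genes vehicle mouse 2 was far below its group and the other vehicle hearts lay just under the lowest β-NMN heart.

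The remaining core subunits had log2 fold changes of 0.22 (Ndufs1) to 0.39 (Ndufs3) in hearts, with adjusted p from 0.487 to 0.643. Ndufv1 did so without overlap, at 874, 513 and 852 CPM in vehicle and 1008, 980 and 895 CPM in β-NMN hearts. Without vehicle mouse 2, Ndufs1 had −0.00, Ndufv2 0.02, Ndufs8 0.11, Ndufv1 0.15 and Ndufs3 0.17. Ndufa4 had 593, 372 and 586 CPM against 615, 615 and 526 CPM (0.18 ± 0.22, adjusted p = 0.688; −0.02 without that mouse). Ndufa4l2 had 16, 3.39 and 14.8 CPM against 16.2, 20.5 and 20.5 CPM (0.74 ± 0.51, adjusted p = 0.518; 0.30 without that mouse), with the other vehicle hearts just below the lowest β-NMN heart. Ndufs6b, a relative of the N module subunit Ndufs6, passed the filter for the treatment test in hearts alone and was under 1 CPM in each (0.99 ± 0.46, adjusted p = 0.442; 0.76 without that mouse).

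The heart of vehicle mouse 2 was low in every subunit and assembly factor. Relative to the mean of the other vehicle hearts its log2 CPM differed by −0.23 to −1.14 over 36 subunits with a known principal transcript (median −0.75), whereas over 13957 genes the median was 0.02. The same heart had 17952 CPM of Myh6, the main heavy chain of mouse heart muscle, against 29503 and 29720 CPM in the other vehicle hearts, and mitochondrially encoded genes took 12.9% of its counts against 22.1% and 22.6%. Its atrial genes were high: Myl7, an atrial myosin light chain, had 2111 CPM against 5.07 and 192 CPM, and Nppa, atrial natriuretic peptide, 4009 CPM against 16.3 and 619 CPM. Over the atrial list of 4 genes the sums were 31.1 to 9639 CPM in vehicle and 43.5 to 214 CPM in β-NMN hearts. The 6 cardiomyocyte markers summed to 29756 CPM in this heart and to 46850 CPM or less in the other vehicle hearts, against 48674 to 53189 CPM in β-NMN hearts. The part of tissue makeup in the complex I values was not tested.

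**Figure D3:**
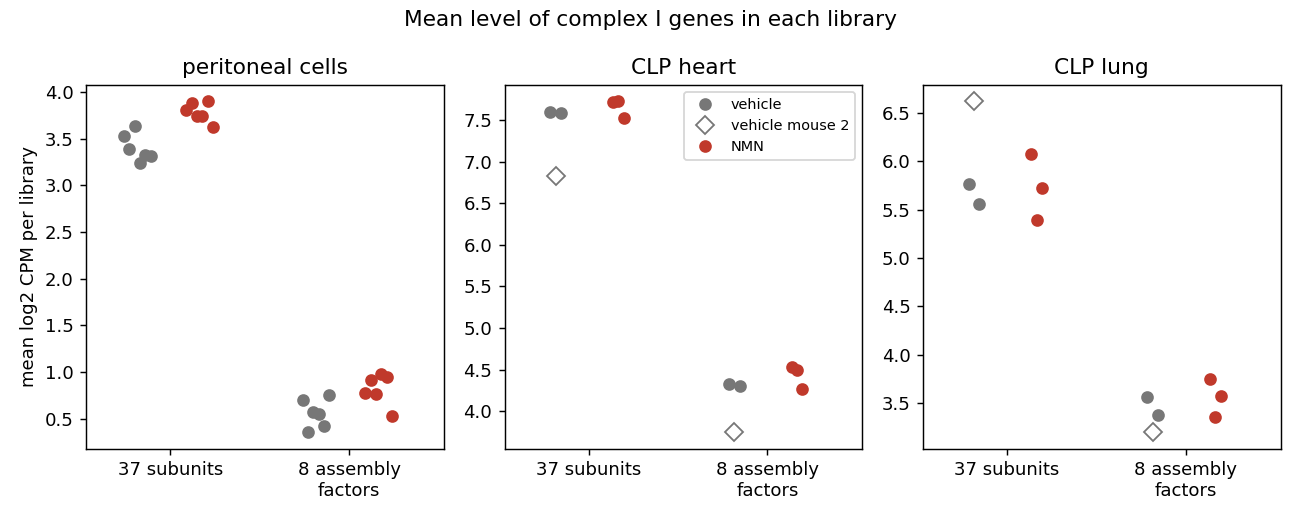
Mean log2 CPM per library over the 37 subunits and over the 8 assembly factors in each tissue, on a separate vertical scale for each panel, with vehicle in grey, β-NMN (NMN) in red and the organs of vehicle mouse 2 as open diamonds. The peritoneal subunit means average 3.41 in vehicle and 3.78 in β-NMN mice, while vehicle mouse 2 is the lowest heart at 6.83 and, for the subunits, the highest lung at 6.62.

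In CLP lungs most subunits had fold changes below 0, and again this rested on vehicle mouse 2. Of 37 subunits and 8 assembly factors 0 were called, as were 0 of all 17008 genes tested (0%). By edgeR, 0 of these 45 members and 301 of all genes had an unadjusted p below 0.05, and DESeq2 and limma-voom called 9 and 7 of all genes but 0 of the 45. The median over the subunits was −0.29, with 32 below 0 and 5 above, while the assembly factors had a median of 0.11, with 7 of 8 above 0. Without vehicle mouse 2 the subunit median was 0.10, with 26 above 0 and 11 below, and the assembly factor median was 0.04. In 0 of the 45 members did the groups separate, which over all genes was found in 4.47% in the higher and in 3.75% in the lower direction. The biological coefficient of variation was 0.44 in lungs, against 0.29 in hearts and 0.23 in peritoneal cells.

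**Figure D4:**
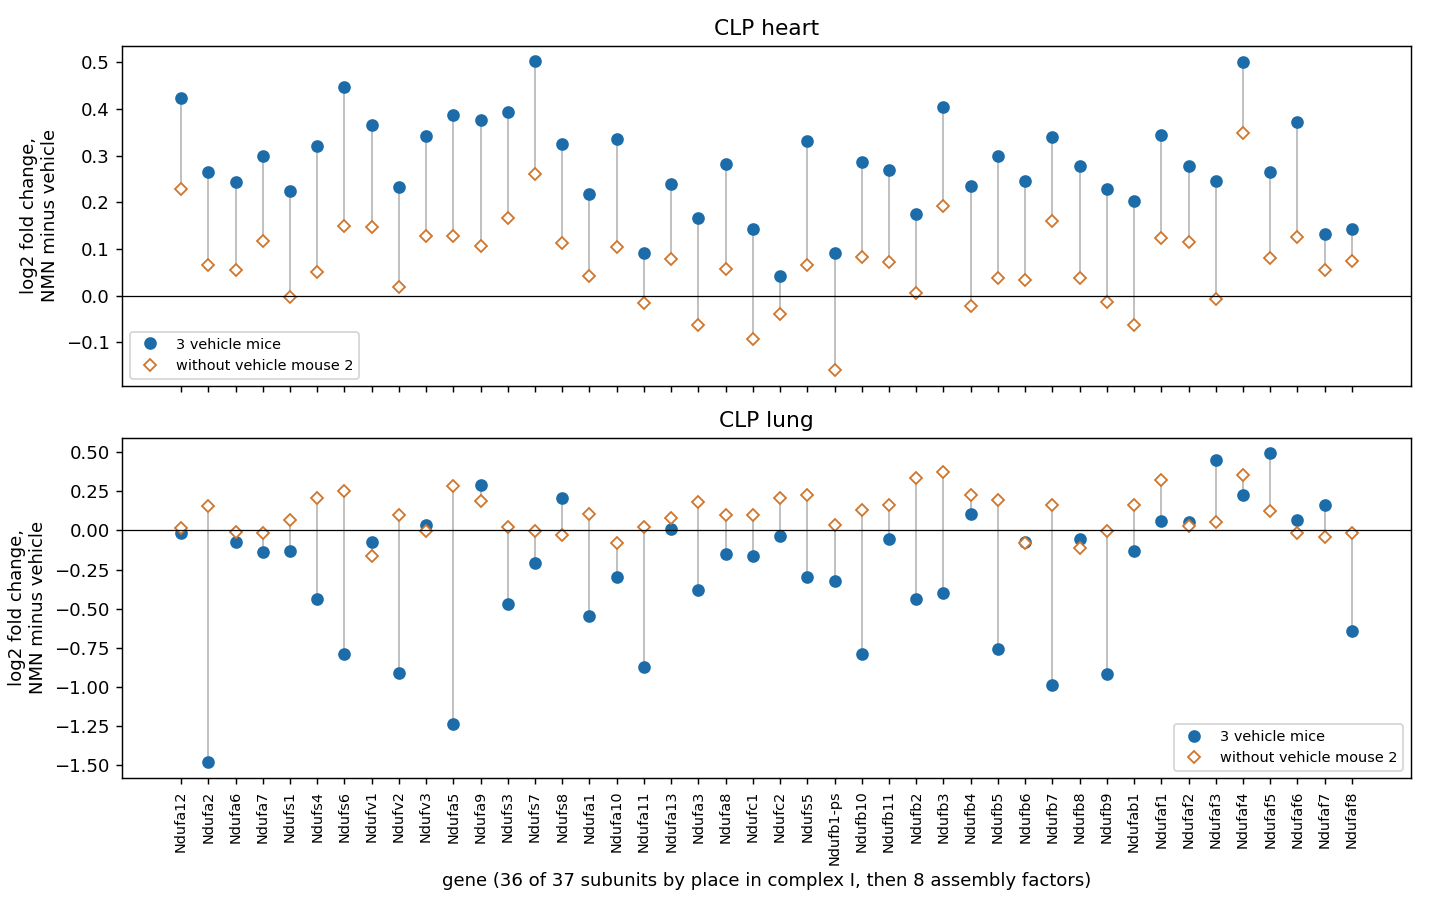
Log2 fold change of β-NMN (NMN) against vehicle for 36 of the 37 subunits and 8 assembly factors in hearts (top) and lungs (bottom), with all 3 vehicle mice (filled circles) and without vehicle mouse 2 (open diamonds), joined by a line for each gene. Leaving this mouse out moves the median over all 37 subunits from 0.28 to 0.07 in hearts and from −0.29 to 0.10 in lungs.

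The members with the largest differences in lungs show how the lung of vehicle mouse 2 differed. Ndufa2, an accessory subunit of the N module, had 107, 741 and 94.4 CPM in vehicle and 172, 66.9 and 97.1 CPM in β-NMN lungs. Ndufa5 of the Q module had 49.0, 294 and 39.6 CPM against 80.1, 36.5 and 45.6 CPM, and Ndufb7 of the distal arm 89.6, 416 and 89.3 CPM against 149, 65.8 and 85.0 CPM. In all 3 the lung of vehicle mouse 2 was far above every other lung, and the remaining vehicle lungs lay within the β-NMN range. The log2 fold changes were −1.48 ± 0.86, −1.23 ± 0.80 and −0.99 ± 0.68 (SE, adjusted p = 0.969 each), and 0.16, 0.28 and 0.16 without this mouse. Ndufb9 of the distal arm, also among the smallest p, had 33.2, 117 and 30.0 CPM against 40.6, 22.4 and 31.6 CPM (−0.92 ± 0.56, adjusted p = 0.969; −0.00 without it).

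The core subunits did not deviate together in that lung. Ndufv2 had 82.2, 283 and 57.0 CPM in vehicle and 90.9, 59.1 and 74.1 CPM in β-NMN lungs, and Ndufs3 54.6, 118 and 51.6 CPM against 66.6, 43.0 and 51.9 CPM. Ndufs8 had 62.5, 32.2 and 58.6 CPM against 68.8, 50.5 and 58.5 CPM, and Ndufv1 116, 92.0 and 109 CPM against 114, 88.2 and 99.8 CPM, so that the same lung was highest in the first pair of genes and lowest of the vehicle lungs in the second pair. Without this mouse the log2 fold changes of Ndufv2, Ndufs3, Ndufs8 and Ndufv1 were 0.10, 0.02, −0.03 and −0.16, against −0.91, −0.47, 0.21 and −0.07 with it. Ndufs1 and Ndufs7 had −0.13 and −0.21 with it and 0.07 and −0.01 without. Among the assembly factors, Ndufaf3 had 23.8, 6.21 and 22.8 CPM and Ndufaf5 6.41, 1.88 and 6.21 CPM in vehicle lungs, both low in mouse 2, whereas Ndufaf8 had 15.0, 40.9 and 15.4 CPM. Ndufa4 had 135, 288 and 99.6 CPM against 160, 107 and 127 CPM (−0.41 ± 0.43; 0.16 without this mouse), and Ndufa4l2 12.9, 5.35 and 12.0 CPM against 22.2, 15.0 and 11.7 CPM (0.68 ± 0.41; 0.38 without it; adjusted p = 0.969 for both with all mice).

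The deviations of this lung were also set beside transcript length and GC content. Against the mean of the other vehicle lungs, the level in the lung of vehicle mouse 2 was higher by more than 1 log2 unit in 10 of 15 subunits whose principal transcript is shorter than 800 bases (median 1.46), in 3 of 12 between 800 and 1500 bases (median 0.56) and in 3 of 9 above 1500 bases (median 0.60). Over all genes tested with a principal transcript, the share with such a difference was 37.1% of 482 short, 21.3% of 1820 intermediate and 14.9% of 12287 long ones, with medians of 0.55, 0.02 and −0.27. As a description across 36 subunits of 1 library, Spearman's correlation of the deviation with length was −0.23 and with GC content −0.19, and over all 14589 genes −0.04 and −0.23. This lung had 1369 CPM of macrophage markers against up to 4286 CPM in other vehicle lungs, 693 CPM of endothelial markers against up to 1474 CPM, and 5714 CPM of Hba-a1 against 991 and 537 CPM, while Hbb-bs, the partner chain of hemoglobin, had 1308 CPM against 2038 and 916 CPM. The same lung had the highest sums of cardiomyocyte (423 CPM) and of atrial and pulmonary vein muscle markers (375 CPM). These sums were 254 to 423 and 86.6 to 375 CPM in vehicle lungs, and 76.8 to 248 and 24.5 to 85.9 CPM in β-NMN lungs. Macrophage markers summed to 1369 to 4286 CPM in vehicle and 4991 to 5461 CPM in β-NMN lungs. The part of length, depth or cell makeup in the subunit values was not tested.

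Whether β-NMN acted differently in hearts and lungs was tested as an interaction over the 12 CLP libraries, with no term for the mouse. Of 18318 genes 0 were called (0%), with 797 at an unadjusted p below 0.05, and 0 of these were subunits or assembly factors. DESeq2 and limma-voom called 0 of the 45 members in this contrast. The log2 difference between the effects was above 0 in all 37 subunits (median 0.50) and in 15 of 37 without vehicle mouse 2 (median −0.04). The members of smallest p were Ndufa2 (1.67 ± 0.90 SE, edgeR adjusted p = 0.96; −0.06 without that mouse) and Ndufs3 (0.83 ± 0.45, adjusted p = 0.96; 0.17 without it).

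Between the organs themselves the differences were large. Over both treatments, 36 of 37 subunits and 6 of 8 assembly factors were higher in heart than in lung and 0 were lower, while 28.9% of all genes were higher and 35.9% lower in heart. The median log2 difference was 2.29 for subunits and 1.46 for assembly factors, against −0.14 over all genes. Without vehicle mouse 2, all 37 subunits and all 8 assembly factors were called higher, with medians of 2.65 and 1.55, while 36.8% of all genes were higher and 38.3% lower in that fit. With the mouse as a block, as heart and lung came from the same animals, 35 subunits and 7 assembly factors were higher, against 28.5% of all genes higher and 33.7% lower.

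The differences ranged widely among members. Ndufs1 differed by 4.48 ± 0.20 (SE, edgeR adjusted p = 8.14e-09). Its CPM, scaled within each organ alone, were 32.5 to 50.7 over the 6 lungs and 329 to 589 over the 6 hearts. The fitted differences come from a joint scaling of both organs and cannot be read off these CPM. Ndufv1 differed by 3.71 ± 0.20, the next largest value, and Ndufa10, an accessory subunit of the membrane arm, by 3.65 ± 0.20 (adjusted p = 2.68e-08 and 3.21e-08), and no lung of any mouse reached a heart in these 3 genes. At the other end, Ndufa2 differed by 0.53 ± 0.45 (adjusted p = 0.319), with differences within mice from −2.02 in vehicle mouse 2 to 2.19, and by 1.5 without that mouse (adjusted p = 6.35e-05). Ndufaf8 differed by 0.55 ± 0.25 (adjusted p = 0.0732; 0.97 and adjusted p = 0.000448 without that mouse). Ndufaf3 differed by 0.59 ± 0.30 (adjusted p = 0.106; 0.69 and adjusted p = 0.017 with the mouse as a block; 0.62 and adjusted p = 0.000245 without vehicle mouse 2). Ndufa4 was higher in heart by 2.56 ± 0.25 (adjusted p = 3.7e-06; 3.01 without vehicle mouse 2). Ndufa4l2 differed by 0.87 ± 0.36 (adjusted p = 0.0524), and without that mouse it was called higher in heart at 1.04 (adjusted p = 0.000175). Ndufs6b was higher in heart by 2.45 ± 0.49 (adjusted p = 0.00088; 2.92 without that mouse), and its treatment effect differed between organs by 0.99 ± 1.01 (adjusted p = 0.96; 0.23 without it).

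**Figure D5:**
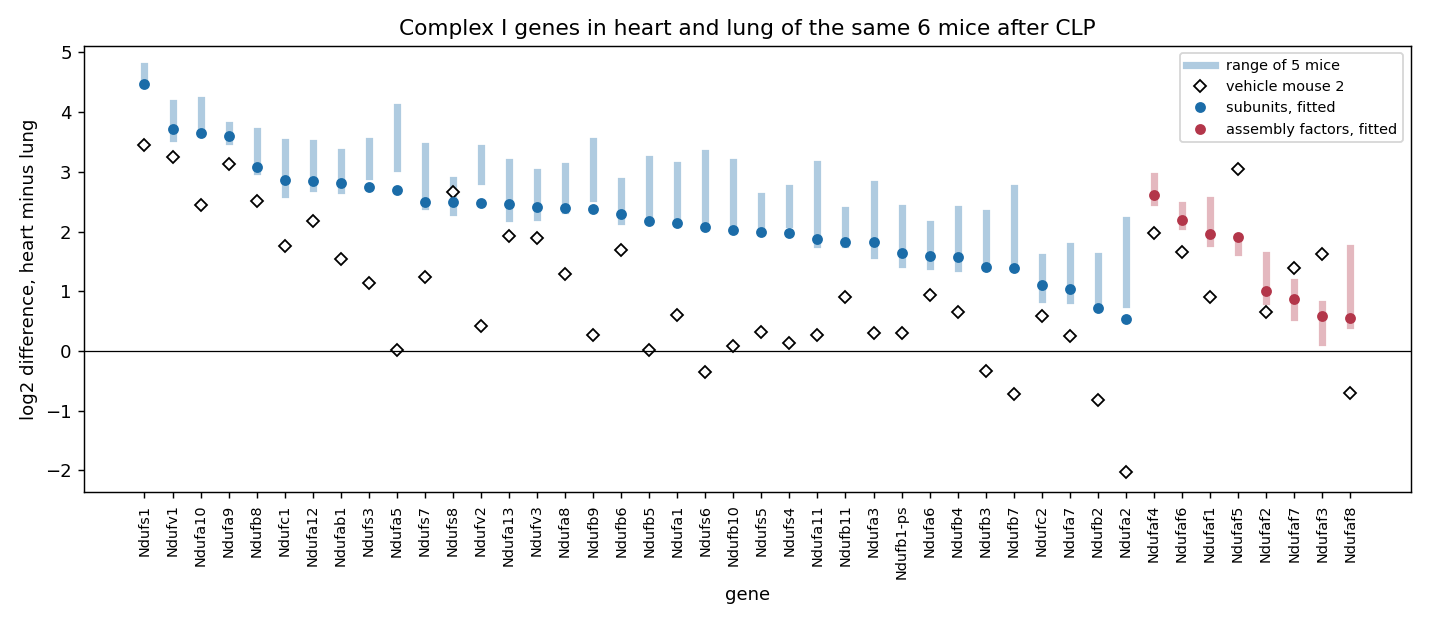
Log2 difference of heart minus lung for 36 of the 37 subunits (blue) and 8 assembly factors (red), with the fitted value as a filled point, the range of the within-mouse differences of 5 mice as a bar and vehicle mouse 2 as an open diamond. The fitted values reach from 0.53 for Ndufa2 to 4.48 for Ndufs1, and the diamond lies below the bar for 35 of these 36 subunits.

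Compared per kilobase of annotated exon, which is needed to set genes beside each other, the order of subunit means was not the same in peritoneal cells and hearts. Ndufb10, for example, ranked 16 in vehicle peritoneal cells and 4 in vehicle hearts among the 37 subunits, and ranks were not tested. In vehicle peritoneal cells Ndufa1 (45.8 ± 8.56 RPKM, SD, n = 6) and Ndufa2 (32.9 ± 4.41) were the highest, followed by Ndufb11 (24.7 ± 4.55). Among the highest in vehicle hearts, Ndufa1 (341 ± 73.7), Ndufa8 (331 ± 93.5) and Ndufb10 (326 ± 83.0; SD, n = 3 each) did not differ beyond their spread. Ndufb2 was the lowest in every tissue (0.141 ± 0.0417 RPKM in vehicle peritoneal cells, n = 6). The exon length includes rarely used exons, so levels of genes with long annotated tails are understated on this scale.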

How the data were processed

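The authors deposited 2 tables of raw read counts per gene symbol, made from poly(A) RNA (NovaSeq) with STAR (2.7.3a in the processing notes, another release in the methods), mm10 and featureCounts 2.0.0. The annotation and strand setting are not stated in any source used here, and the reads are described both as single-end and as paired-end. Neither table was normalized. Every deposited count column matched 1 sample, and no duplicated library was found.

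Each tissue was fitted alone in R 4.3.3 with edgeR 4.0.16 (TMM, estimateDisp, the legacy quasi-likelihood fit and F-test, as in the study's methods, after filterByExpr, which those methods do not mention), and p-values were adjusted by Benjamini-Hochberg over all genes tested. CPM used TMM library sizes from the fit of each tissue alone, and log2 CPM a prior count of 2. Organ differences, fitted or within mice, used TMM library sizes from the joint fit of hearts and lungs. Organ and interaction contrasts used the 12 CLP libraries, with no term for the mouse in the main fit. Single members were also compared by exact two-sided permutation. The test was also run on simulated counts, and no result given here rests on that run. Alternatives were DESeq2 1.42.0 and its size factors, no filter, the newer edgeR fit, the replicate block and leaving out each library. Another was limma-voom (limma 3.58.1), which was always run with a quality weight for each library. The depth class at 70000000 counts was added after the data were seen.

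Members and gene lists were chosen with earlier results of these data known. Named members were the core subunits, the largest changes and smallest p by a fixed rule, each assembly factor in peritoneal cells, Ndufa4 and Ndufa4l2. The values of 1 member are not reported here singly, although the counts and medians include it. Other names with values (Ndufb2, Ndufb9, Ndufb1-ps, Ndufa10, Ndufa3, Ndufs5, Ndufb4 and Ndufb7 in peritoneal cells, assembly factors in lungs, and Ndufs6b between organs) were chosen after their values were seen. So were Ndufa1, Ndufa2, Ndufa8, Ndufb2, Ndufb10 and Ndufb11 in the comparison per kilobase of exon. Hearts and lungs are paired because they came from the same mice. One β-NMN heart has a repeated replicate number in the titles and was numbered by its lung. Gene lengths are from GENCODE M21, promoters from RefSeq (GRCm38.p6). Within a tissue each library is a mouse, so p-values of the treatment tests there measure the spread between mice of 1 experiment. In the organ and interaction contrasts each CLP mouse gave both a heart and a lung library. Their main fit held no mouse term, so its standard errors and p-values treat these paired organs as independent.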

Additional observations from a re-analysis of the deposited data

Results flagged for a closer look

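In 42 groups of 6 peritoneal libraries (19 named members and the mean levels of the subunits and of the assembly factors, each in vehicle and β-NMN mice), the highest or lowest library was compared with the rest of its group by Dixon's ratio, and 2 stood apart. Ndufs7 reached 18.7 CPM in vehicle mouse 3, with the other vehicle mice at 12.1 to 13.8 CPM. Ndufa5 reached 7.81 CPM in β-NMN mouse 2, with the other β-NMN mice at 5.97 to 6.64 CPM. Chance flags about 1 in 20 such groups. Groups of 3 hearts or lungs were not examined in this way.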

How the results depend on the processing

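In peritoneal cells, the number of subunits called higher ranged from 19 without the low-count filter to 29 with DESeq2 or limma-voom, was 22 with the replicate block and 23 to 29 when each library was left out, and 0 subunits were called lower in any of these. Numbers do not pair the peritoneal mice (correlations of same-numbered mice from −0.17 to 0.13), and in hearts each mouse correlated best with its own number although not every pair passed 0.1. Among the members named by the fixed rule, the block changed the calls of Ndufs1 (adjusted p = 0.107) and, between organs, Ndufaf3, and its effect on other single members was not examined. Between organs, limma-voom called Ndufa2, Ndufaf8 and Ndufaf3, and Ndufaf8 was called without the low-count filter. Ndufs1 and Ndufaf2 in peritoneal cells were not called without that filter, and Ndufv1 was called with DESeq2, its size factors and limma-voom. The mean subunit difference was 0.55 within libraries above 70000000 counts and 0.23 below, chosen after seeing the data. With 1 library left out, Ndufs8 in peritoneal cells ranged from −0.18 to 0.025. In hearts Ndufs1 ranged from −0.0035 to 0.35 and Ndufa4 from −0.018 to 0.29. In lungs the ranges were −1.93 to 0.16 (Ndufa2), −0.66 to 0.16 (Ndufa4), −1.63 to 0.28 (Ndufa5), −1.39 to 0.16 (Ndufb7), −0.24 to 0.069 (Ndufs1), −0.65 to 0.019 (Ndufs3), −0.032 to 0.39 (Ndufs8), −0.17 to 0.017 (Ndufv1) and −1.26 to 0.10 (Ndufv2). Limma-voom with its quality weights reversed Ndufs8 (−0.059), Ndufa5 (0.0020) and Ndufa4 (0.027) in lungs. The organ difference in effect for Ndufa2 ranged from −0.061 to 2.19. The causes were not tested. In hearts and lungs 0 subunits or assembly factors were called under any alternative. Assembly factors near 1 CPM in peritoneal cells and the shallow lung of vehicle mouse 2 limit precision.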
